A study of Mus musculus with 63 samples.

Results

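The comparison described here set PDGFR-β+ cells of mouse kidneys whose ureteric obstruction had been reversed (R-UUO) against the same population after 7 days of obstruction (UUO-7). It comprised 7 libraries, 4 of R-UUO and 3 of UUO-7, out of 15 small RNA libraries of PDGFR-β+ cells and 63 libraries in the series, and all 2110 counted miRNA loci were members. The series profiled PDGFR-β+ cells beside endothelial cells (ECs), macrophages (Macs) and proximal tubule (PT) cells, each sorted by FACS from the same kidneys, in 4 conditions that also included sham surgery and 2 days of obstruction (UUO-2). Every animal was a male C57BL/6 mouse of 8 to 12 weeks with no transgene. In UUO-7 the distal ureter had been ligated for 7 days. In R-UUO the ureter was ligated for 7 days and then joined back to the bladder, and the kidney was taken 14 days later, so the groups differed both in relief of the obstruction and in time since injury. PDGFR-β+ cells were sorted as CD45- and CD31- cells, a gate that holds pericytes, fibroblasts and myofibroblasts together. The mice sequenced were those nearest to their group's mean for a tubular injury marker, and 1 further UUO-7 library was removed by the authors as an outlier and was not analysed here.

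A mature miRNA is a short RNA cut from one arm (5p or 3p) of a hairpin precursor. It recognises target messenger RNAs largely through its seed, bases 2 to 8 from its 5′ end, so that miRNAs with one seed are grouped in a family with overlapping targets. Hairpins that lie close together on one strand are often transcribed as a single precursor. Pericytes and fibroblasts of the kidney give rise to the matrix-producing myofibroblasts of fibrosis, and miR-21, miR-199 and miR-214 are known for rising in such cells while miR-143 and miR-145 mark contractile mural cells.

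Of the loci called in the comparison, 18 of 19 had a mature sequence in RefSeq (GRCm38.p6), and the sequences below are those that the results turn on. Capitals mark the seed. The first set comprises 4 seeds that are shared by a called miRNA and by others that passed the expression filter, with members of one seed on successive lines.
miR-322-5p: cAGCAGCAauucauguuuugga
miR-16-5p: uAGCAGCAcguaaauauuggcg
miR-351-5p: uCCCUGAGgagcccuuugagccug
miR-125a-5p: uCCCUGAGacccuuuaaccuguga
miR-125b-5p: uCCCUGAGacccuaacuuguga
miR-100-5p: aACCCGUAgauccgaacuugug
miR-99b-5p: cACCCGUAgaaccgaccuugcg
miR-99a-5p: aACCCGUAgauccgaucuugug
miR-181c-5p: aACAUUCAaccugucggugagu
miR-181d-5p: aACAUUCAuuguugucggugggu
miR-181a-5p: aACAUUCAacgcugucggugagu
The second set holds the remaining called members of a cluster of hairpins on the X chromosome, none of which shares its seed with another tested name.
miR-322-3p: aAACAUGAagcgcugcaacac
miR-450a-5p: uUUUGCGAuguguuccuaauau
miR-450b-5p: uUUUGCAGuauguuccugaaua
miR-542-3p: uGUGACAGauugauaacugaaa
The third set gives other miRNAs that were called higher, followed by those called lower, and last the most abundant miRNA of the imprinted Dlk1-Dio3 region.
miR-146a-5p: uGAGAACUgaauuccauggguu
miR-204-5p: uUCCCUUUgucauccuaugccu
miR-149-5p: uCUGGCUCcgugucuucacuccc
miR-142a-3p: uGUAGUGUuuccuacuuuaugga
miR-142a-5p: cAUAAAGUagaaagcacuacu
miR-296-3p: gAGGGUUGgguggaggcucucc
miR-127-3p: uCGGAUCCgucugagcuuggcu

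Total counts ranged from 1905053 to 4346685 in the UUO-7 libraries and from 4078086 to 8769219 in R-UUO, and the 10 most abundant loci took 68.9 to 73.1% of them. One library stood apart. On the first principal component, which held 54.7% of the variance of the 15 PDGFR-β+ libraries, R-UUO replicate 1 lay at -23.4, among the UUO-7 libraries at -27.0 to -18.6, whereas the other 3 R-UUO libraries lay at -5.55 to 0.24 and sham at 13.5 to 21.8. Results that rest on this library are given with and without it. Marker miRNAs of PDGFR-β+ cells (miR-143-3p, miR-145a-5p, miR-199a, miR-214-3p and miR-34c-5p) summed to 75663 to 134140 CPM (counts per 1000000 counts of a library, scaled by TMM) in the 7 libraries, against 378 to 1146 CPM for the endothelial miR-126a arms and 109 to 581 CPM for a list of 5 leukocyte miRNAs. In these libraries 3 proximal tubule markers summed to 677 to 1311 CPM and 5 markers of other epithelium to 398 to 1406 CPM.

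After the filter on low counts, 477 loci were tested, and 15 were called higher in R-UUO than at UUO-7 (3.14% of those tested) and 4 lower (0.839%), in all 19 (3.98%), by edgeR's quasi-likelihood test with a false discovery rate under 0.05 and a fold change over 1.5. These DEmiRNAs comprised a cluster of X-linked miRNAs, miR-181c-5p, miR-125a-5p, miR-99b-5p, miR-100-5p, miR-146a-5p, miR-204-5p, miR-149-5p and miR-23b-3p, which rose, and the leukocyte miRNA miR-142a with miR-296-3p, which fell. The libraries did not overlap between the groups at 48 loci that were higher in R-UUO (10.1% of 477) and at 37 that were lower (7.76%), and 84 loci (17.6%) had an unadjusted p under 0.05. The median log2 change over all tested loci was -0.05. With library sizes alone in place of TMM factors the median was -0.28, and 5 loci were called higher and 7 lower. Without R-UUO replicate 1, 22 of 460 loci were called higher (4.78%) and 53 lower (11.5%), in all 75 (16.3%), among them all 19 called with it. Because this library was singled out for its likeness to UUO-7, counts and changes without it are a description and not a further test. Leaving out another single library gave 3 to 9 higher and 0 to 4 lower, with the fewest, 3 and 0, when UUO-7 replicate 5 was left out.

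**Figure D1:**
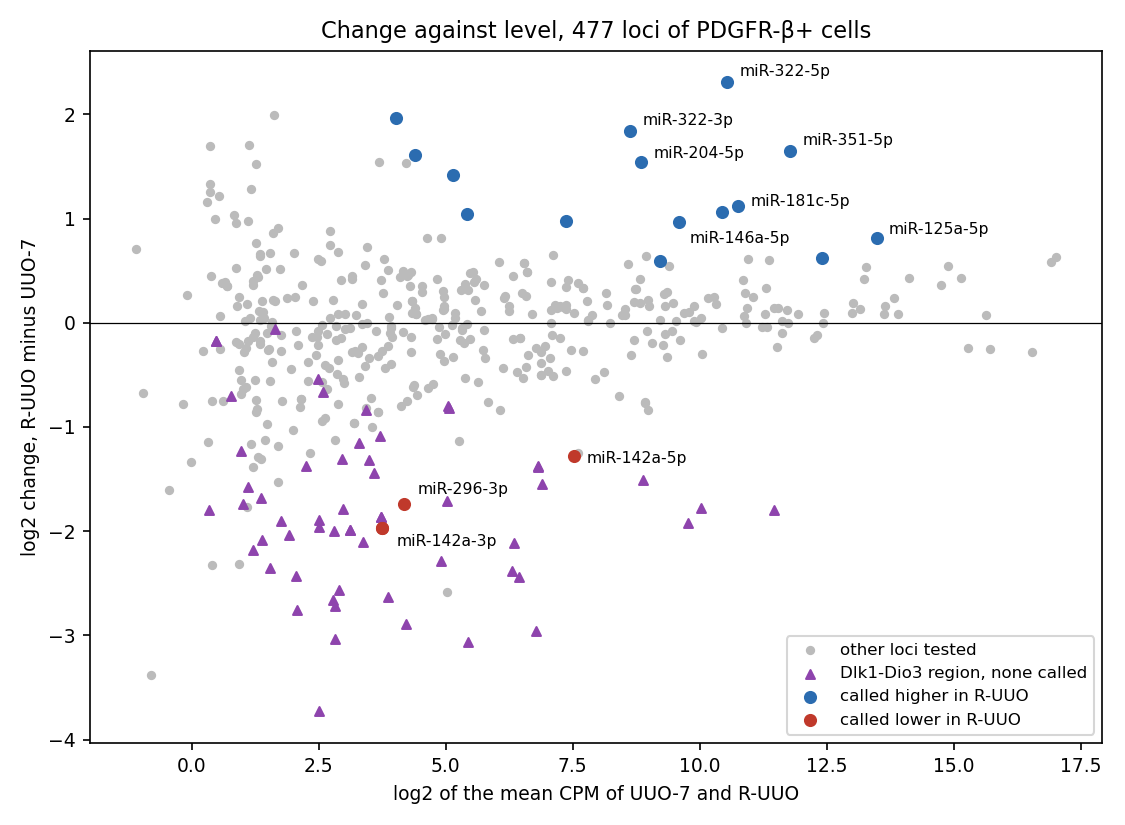
Log2 change from UUO-7 to R-UUO (vertical axis) against log2 of the mean CPM of the 2 groups (horizontal axis) for the 477 tested loci of PDGFR-β+ cells, with called loci as coloured circles and loci of the Dlk1-Dio3 region as triangles. The 15 loci called higher reach a log2 change of 2.31 at miR-322-5p, and every Dlk1-Dio3 triangle lies below 0 although none was called.

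The 5 largest increases among the called loci were all in the X-linked cluster. Its hairpins lie within 10 kb on the minus strand of the X chromosome (GRCm38), from miR-450b-5p at chrX:53048044-53048065 to miR-322-5p at chrX:53054306-53054327, and 11 of its 12 loci passed the filter, all of them also without the UUO-7 libraries. Of these 11, 7 were called higher, against 3.14% of all loci, and all 11 had a positive log2 change (0.88 to 2.31, median 1.65). The same 11 were positive with library sizes alone, where the median was 1.41 and 4 were called. The number called depended on single libraries: it was 2 without UUO-7 replicate 2 or 5, 3 without UUO-7 replicate 4, 4 without R-UUO replicate 2, 4 or 5 and 8 without R-UUO replicate 1, and the log2 changes stayed positive in each of these fits. Because these are sorted bulk samples, fewer cells that express a miRNA and less of it in each cell cannot be told apart, here and below.

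miR-322-5p, which carries the seed of miR-15 and miR-16 and is known for restraining cell-cycle genes, was at 513, 539 and 445 CPM in UUO-7 replicates 2, 4 and 5. In R-UUO replicates 1, 2, 4 and 5 it was at 1614, 2526, 2619 and 3132 CPM. All R-UUO libraries lay far above all UUO-7 libraries, and replicate 1 was the lowest of them. The mean rose from 499 ± 48.4 (SD, n = 3) to 2473 ± 631 CPM (SD, n = 4), a log2 change of 2.31 (SE 0.25, 95% confidence interval 1.77 to 2.85, adjusted p = 7.13e-05). Sham libraries held 1536 to 2766 CPM, and the difference of R-UUO from sham did not pass the test (log2 0.23, 95% confidence interval -0.23 to 0.69, adjusted p = 0.399), while UUO-7 was lower than sham by a log2 change of -2.07 (adjusted p = 6.78e-06).

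miR-351-5p was the most abundant member and has the seed of miR-125. It was at 1568, 1810 and 1738 CPM at UUO-7 and at 3074, 5571, 5626 and 7133 CPM in R-UUO replicates 1, 2, 4 and 5. Again no R-UUO library reached down to the UUO-7 range, and again replicate 1 was the lowest. The log2 change was 1.65 (SE 0.26, adjusted p = 0.00236), and the R-UUO mean, though not replicate 1, lay within the range of sham, 4608 to 9156 CPM (log2 -0.35 against sham, adjusted p = 0.23).

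The other arm of the miR-322 hairpin, miR-322-3p, rose by a log2 change of 1.84 (SE 0.38, adjusted p = 0.0173). Its libraries were at 150, 199 and 173 CPM at UUO-7 and at 222, 749, 509 and 1004 CPM in R-UUO, so that replicate 1 was close to the UUO-7 libraries and the other 3 were well above them. Against sham, at 750 to 1559 CPM, the R-UUO mean differed by a log2 change of -0.83 (adjusted p = 0.0522).

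The remaining called members were less abundant. miR-542-3p (chrX:53049415-53049436) was at 27.4 to 28.6 CPM in the UUO-7 libraries and at 35.2 to 74.2 CPM in R-UUO, a log2 change of 1.04 (adjusted p = 0.0332). miR-450b-5p was at 15.8 to 21.8 and 27.3 to 68.8 CPM (log2 1.42, adjusted p = 0.0395). The calls of these 2 were each lost in 10 of 17 alternatives, among them the omission of any single library other than R-UUO replicate 1. miR-450a-5p is encoded by a pair of loci with one mature sequence, chrX:53048206-53048227 (log2 1.96, adjusted p = 0.0173) and chrX:53048339-53048360 (log2 1.61, adjusted p = 0.0392), and the placing of reads between them is uncertain. At the second of these the groups overlapped, with R-UUO replicate 1 at 12.5 CPM inside the UUO-7 range of 7.05 to 13.9 CPM. The call at this second locus was lost in 8 of 17 alternatives, including the same omissions of single libraries. These 4 loci were all lower at UUO-7 than in sham, and both miR-450a-5p loci and miR-542-3p were still lower in R-UUO than in sham (log2 -1.16, -1.36 and -0.70). The 4 tested members that did not pass were miR-503-3p (log2 1.54, adjusted p = 0.0703), miR-503-5p (1.71, adjusted p = 0.255), miR-542-5p (0.88, adjusted p = 0.356) and miR-351-3p (1.70, adjusted p = 0.529).

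Summed over the 11 loci, the cluster held 2308, 2627 and 2432 CPM at UUO-7, and 5010, 9068, 8947 and 11554 CPM in R-UUO replicates 1, 2, 4 and 5. Sham held 7143 to 14056 CPM and UUO-2 6816 to 10431 CPM, so the 3 UUO-7 libraries were the lowest of the 15.

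**Figure D2:**
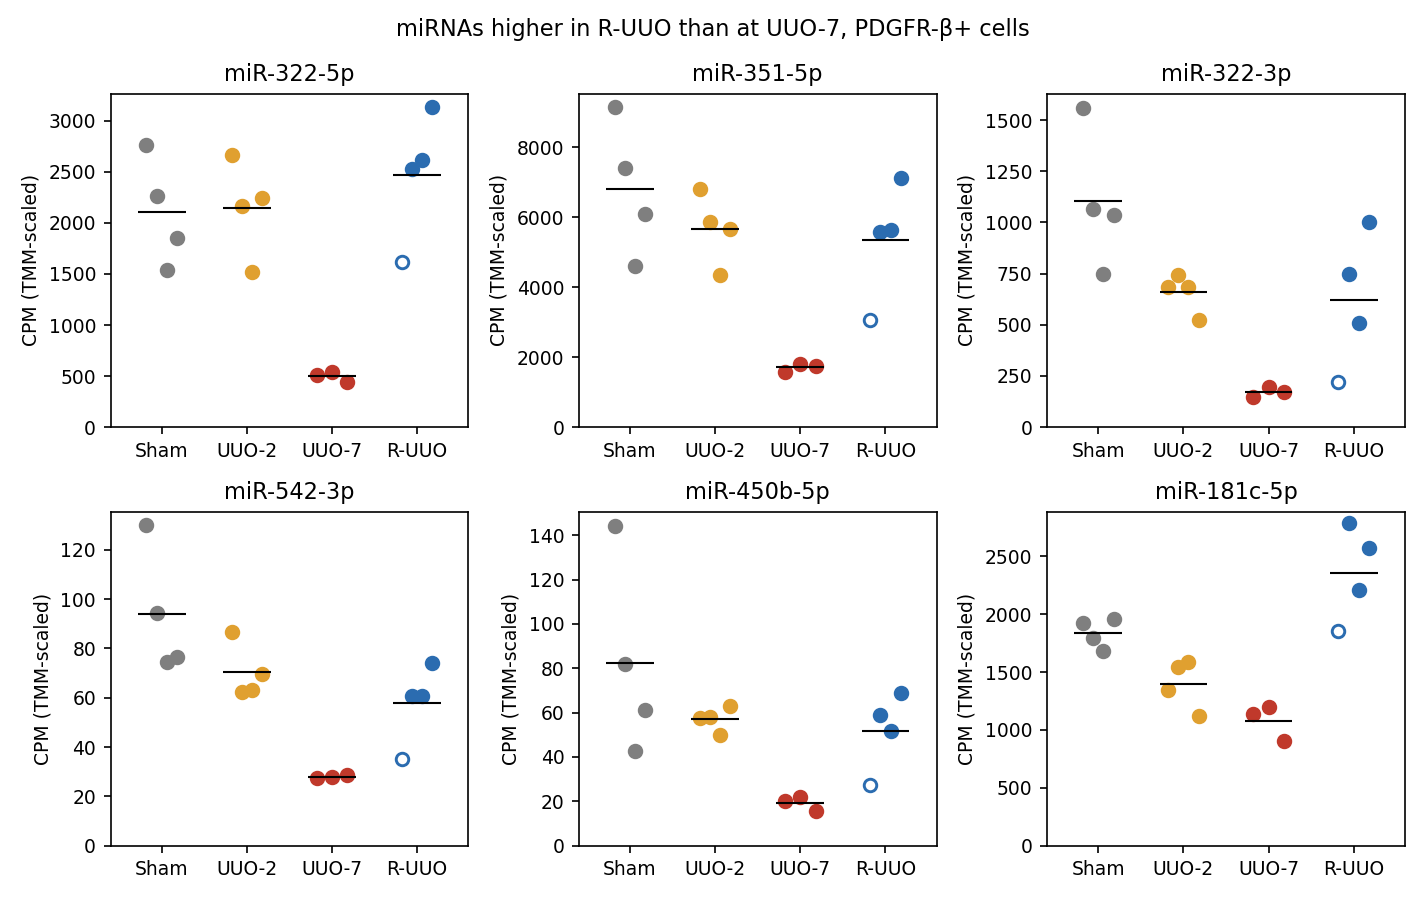
CPM (TMM-scaled, vertical axis from 0) of 5 members of the X-linked cluster and of miR-181c-5p in each PDGFR-β+ library by condition; bars mark the mean and the open circle is R-UUO replicate 1. UUO-7 libraries are the lowest for the 5 cluster members, and overlap with UUO-2 for miR-181c-5p, and R-UUO replicate 1 is the R-UUO library nearest to them.

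miR-181c-5p, of a family known for tuning signalling thresholds in immune and other cells, was at 1140, 1202 and 901 CPM at UUO-7 and at 1858, 2789, 2208 and 2574 CPM in R-UUO replicates 1, 2, 4 and 5. The groups did not overlap, and replicate 1 was the lowest R-UUO library. It rose by a log2 change of 1.12 (SE 0.16, adjusted p = 0.00127) from a level below sham (log2 -0.77 at UUO-7) to one whose difference from sham did not pass the test (log2 0.36, adjusted p = 0.0575). Its locus, chr8:84178924-84178945 on the minus strand, lies in an intron of Nanos3. miR-181d-5p, from the same intron, had an adjusted p of 0.032 at a log2 change of 0.54, under the fold threshold.

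The miR-181 list had 8 tested loci, of which 1 was called higher, where 3.14% of all loci were. All 8 had a positive log2 change (median 0.54, against -0.05 over all loci), and 5 of 8 were positive with library sizes alone. miR-181a-5p, the most abundant, was at 20360 to 28748 CPM at UUO-7 and at 29538 to 42564 CPM in R-UUO for its chromosome 2 locus (log2 0.55, adjusted p = 0.0632). Without R-UUO replicate 1, 4 of the 8 were called higher, where 4.78% of all loci were. The 6 loci with the seed ACAUUCA summed to 32006 to 44520 CPM at UUO-7 and to 45378 to 64929 CPM in R-UUO, groups that did not overlap. Sham held 17316 to 20310 CPM, so unlike miR-181c-5p the sum was above sham at UUO-7 and further above it in R-UUO. miR-181c-5p made up 2.82% of the summed mean CPM at UUO-7 and 4.28% in R-UUO.

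miR-125a-5p and miR-99b-5p are encoded on the plus strand of chromosome 17 in Spaca6, the former in an exon (chr17:17830817-17830840) and the latter in an intron (chr17:17830194-17830215). miR-125a-5p was at 8906, 8377 and 7613 CPM in UUO-7 replicates 2, 4 and 5 and at 16065, 14344, 13973 and 13778 CPM in R-UUO replicates 1, 2, 4 and 5. Here replicate 1 was the highest of the R-UUO libraries, all of which lay above UUO-7. The log2 change was 0.81 (SE 0.15, adjusted p = 0.00644), and the R-UUO mean of 14540 ± 1043 CPM (SD, n = 4) also exceeded that of sham, 9713 ± 1420 CPM (SD, n = 4; log2 0.58, adjusted p = 0.00243, just under the fold threshold).

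miR-99b-5p was at 4206 to 4328 CPM at UUO-7 and at 5694 to 7434 CPM in R-UUO (log2 0.62, adjusted p = 0.0287). miR-100-5p, encoded on chromosome 9 (chr9:41531437-41531458) with the same seed, was at 915, 927 and 864 CPM at UUO-7 and at 1797, 2154, 1580 and 2020 CPM in R-UUO (log2 1.07, SE 0.24, adjusted p = 0.0195). Both had all R-UUO libraries above all UUO-7 libraries, and both were higher in R-UUO than in sham, miR-100-5p by a log2 change of 2.67 and miR-99b-5p by 0.85. miR-100-5p was already higher at UUO-7 than in sham (log2 1.60), so its level in R-UUO lay further from sham than that at UUO-7.

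Of the 12 tested loci of the miR-99, miR-100 and miR-125 list 3 were called, all higher (3.14% of all loci were), and 0 with library sizes alone, where the median log2 change turned from 0.14 to -0.10. None was called without UUO-7 replicate 5, and 1 was without R-UUO replicate 2, UUO-7 replicate 2 or UUO-7 replicate 4, and 2 without R-UUO replicate 5. The pair of miR-125b-5p loci had log2 changes of 0.61 and 0.61 (adjusted p = 0.159 for each), whereas miR-99a-5p, which has the seed of miR-100-5p, was at 587 CPM at UUO-7 and 598 CPM in R-UUO (log2 0.03). Summed over the seed CCCUGAG, which takes in miR-351-5p, miR-125a-5p and both miR-125b-5p loci, the libraries held 12818 to 14082 CPM at UUO-7 and 24671 to 26464 CPM in R-UUO. The sum for the seed ACCCGUA was 5730 to 5828 CPM at UUO-7 and 7770 to 10144 CPM in R-UUO.

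The sum for the seed AGCAGCA was 7125 to 7321 CPM at UUO-7 and 8824 to 10191 CPM in R-UUO, groups that did not overlap. Of the 7 tested loci with this seed miR-322-5p alone was called (3.14% of all loci were called higher). It made up 6.89% of their summed mean CPM at UUO-7 and 26.2% in R-UUO. The 2 loci of miR-16-5p, which dominated the sum, had log2 changes of -0.00 (SE 0.11 each), with 3392 to 3428 CPM at UUO-7 and 3264 to 3513 CPM in R-UUO at the chromosome 14 locus. miR-195a-5p, miR-497a-5p, miR-15a-5p and miR-15b-5p were at log2 changes of -0.34 to 0.28, none called.

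miR-146a-5p, which is induced by NF-κB and represses Traf6 and Irak1 in a feedback loop, was at 509, 559 and 502 CPM at UUO-7 and at 858, 840, 1230 and 1169 CPM in R-UUO replicates 1, 2, 4 and 5. All R-UUO libraries were above UUO-7, and all UUO-7 libraries above sham, at 151 to 292 CPM. The log2 change was 0.97 (SE 0.21, adjusted p = 0.0173) from UUO-7 and 2.32 from sham (adjusted p = 1.63e-07). The call against UUO-7 was lost in 4 of 17 alternatives. These were library sizes alone and the omission of R-UUO replicate 4, UUO-7 replicate 2 or UUO-7 replicate 5. miR-146b-5p, with the same seed and far more abundant, was at 5111 ± 1648 CPM (SD, n = 3) and 4618 ± 862 CPM (SD, n = 4; log2 -0.15, adjusted p = 0.787), so the summed level of that seed overlapped between the groups.

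miR-204-5p (chr19:22750610-22750631, an intron of Trpm3) was at 289, 246 and 167 CPM at UUO-7. It was at 313, 806, 673 and 938 CPM in R-UUO replicates 1, 2, 4 and 5, so that replicate 1 lay just above the highest UUO-7 library and the other 3 well above it. The log2 change was 1.54 (SE 0.39, adjusted p = 0.0321), and the R-UUO mean, though not replicate 1, was within the sham range of 391 to 1139 CPM. Its call was lost in 9 of 17 alternatives, among them the omission of any single library other than R-UUO replicate 1.

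miR-149-5p (chr1:92850381-92850403, an intron of Gpc1, a heparan sulfate proteoglycan) was at 92.7 to 120 CPM at UUO-7 and at 126, 271, 195 and 281 CPM in R-UUO (log2 0.97, adjusted p = 0.0392). It too was above sham at UUO-7 (log2 0.98) and further above it in R-UUO (log2 1.95). Its call was likewise lost in 9 of 17 alternatives, with the same omissions of single libraries among them. miR-23b-3p (chr13:63300529-63300549) was at 407 to 519 CPM at UUO-7 and at 679 to 750 CPM in R-UUO (log2 0.59, SE 0.13, adjusted p = 0.0173), between UUO-7 and sham at 1015 to 1301 CPM. This change was just over the fold threshold. The call of miR-23b-3p was lost in 5 of 17 alternatives, among them library sizes alone and the omission of R-UUO replicate 5 or UUO-7 replicate 5. In the miR-23, miR-27 and miR-24 list 9 of 10 loci had a positive log2 change with TMM factors and with library sizes alone (median 0.41 and 0.18). With TMM factors miR-23b-3p was the one called, where 3.14% of all loci were called higher.

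Fewer loci fell, and 3 of the 4 are arms or overlaps of one hairpin. miR-142a is made in blood-derived cells and served here as a leukocyte marker. miR-142a-5p (chr11:87756867-87756887, an intron of Mir142hg) was at 162, 217 and 406 CPM at UUO-7 and at 85.2, 88.0, 123 and 134 CPM in R-UUO replicates 1, 2, 4 and 5. The groups did not overlap, and UUO-7 replicate 5 was the highest. The log2 change was -1.28 (SE 0.32, adjusted p = 0.032), and R-UUO remained above sham (log2 0.94, adjusted p = 0.0195).

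miR-142a-3p was at 13.9, 14.1 and 35.9 CPM at UUO-7 and at 2.85 to 6.83 CPM in R-UUO (log2 -1.97, adjusted p = 0.0173). miR-142b, annotated antisense to it, had the same count in every library, so the 2 loci are one measurement. Leaving out UUO-7 replicate 5 or R-UUO replicate 2 ended the calls of all 3 loci.

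Both arms of miR-142a are among 5 leukocyte markers tested, all of which had a negative log2 change (median -1.28, and -1.55 with library sizes alone), as did 254 of all 477 loci, and 2 of which were called, against 0.839% of all loci. None was called without UUO-7 replicate 5 or R-UUO replicate 2, and 1 without UUO-7 replicate 4 or R-UUO replicate 4. Without UUO-7 replicate 2, the only UUO-7 library with counts of miR-511-3p, 1 of the 5 turned positive. miR-223-3p, a myeloid miRNA, was at 21.0, 28.4 and 117 CPM at UUO-7 and at 6.63 to 13.8 CPM in R-UUO, a log2 change of -2.59 (adjusted p = 0.114), while miR-150-5p and miR-511-3p were at log2 changes of -0.69 and -0.67. The list summed to 235, 283 and 581 CPM at UUO-7 and to 109 to 165 CPM in R-UUO, against 65.6 to 147 CPM in sham. Whether residual leukocytes in the sorted cells take part in the fall of miR-142a was not tested.

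miR-296-3p (chr2:174267058-174267079) was at 14.1, 23.8 and 45.2 CPM at UUO-7 and at 4.82, 10.5, 4.86 and 12.9 CPM in R-UUO (log2 -1.74, SE 0.46, adjusted p = 0.0395). The groups were separate by a small gap, and R-UUO remained above sham at 1.78 to 4.20 CPM (log2 1.44, adjusted p = 0.0197). The call of miR-296-3p was lost in 8 of 17 alternatives. Its neighbour miR-298-5p was at a mean of 273 CPM at UUO-7 and 115 CPM in R-UUO (log2 -1.25, adjusted p = 0.203).

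Set against sham in the same fit, 12 of the 19 called loci also differed between R-UUO and sham, where 41.7% of all loci did, and 230 of 477 loci (48.2%) differed between UUO-7 and sham. The comparisons share libraries, and each is given by its own values. The 7 that did not pass against sham were miR-322-5p, miR-322-3p, miR-351-5p, miR-450b-5p, miR-181c-5p, miR-204-5p and miR-125a-5p. Of the 12, 4 were still lower than sham (both miR-450a-5p loci, miR-542-3p and miR-23b-3p) and 8 were higher.

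**Figure D3:**
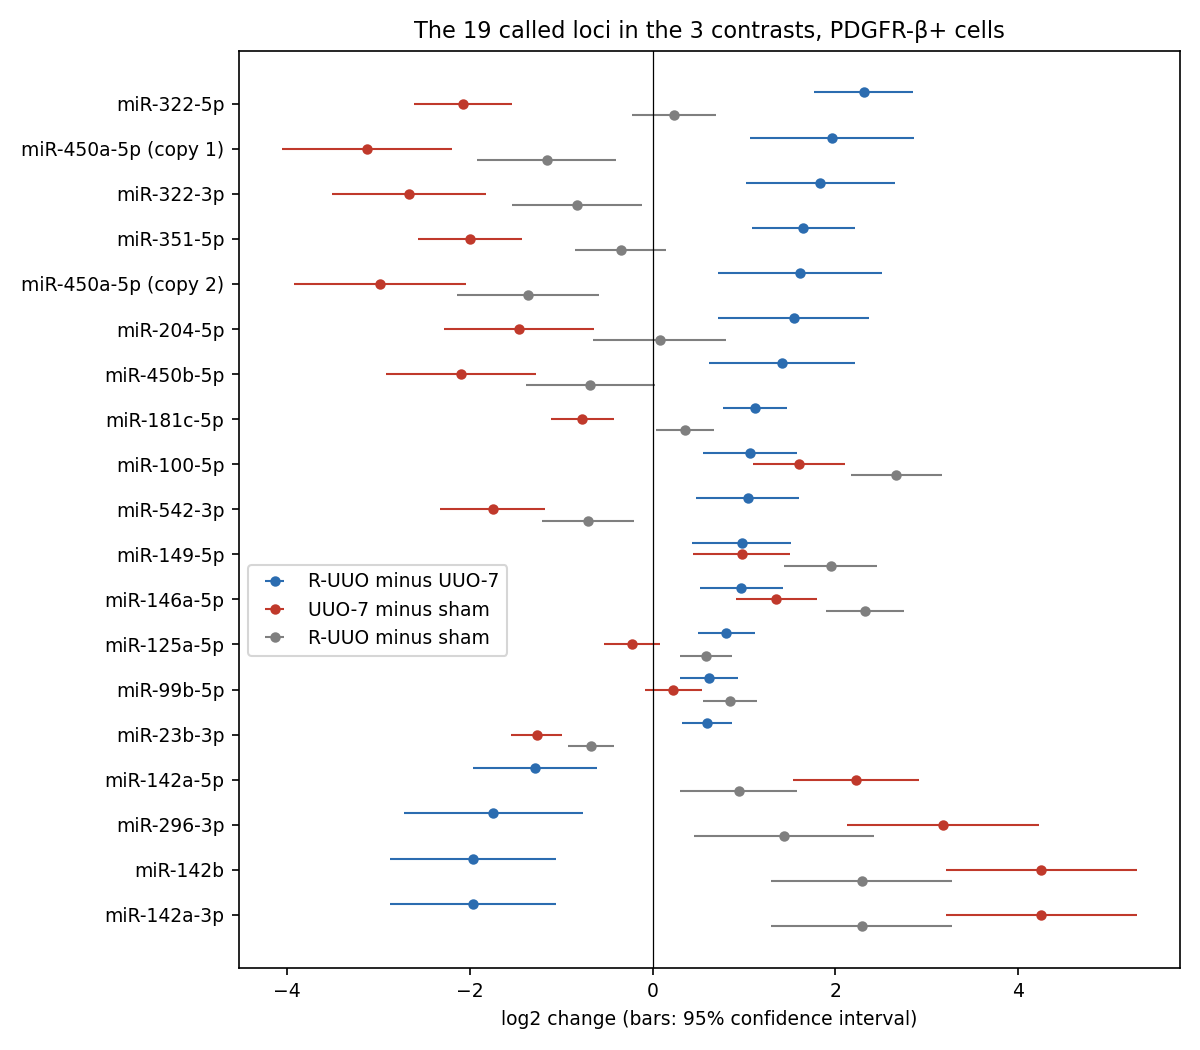
Log2 changes with 95% confidence intervals (horizontal axis) of the 19 called loci for R-UUO minus UUO-7, UUO-7 minus sham and R-UUO minus sham in PDGFR-β+ cells. The X-linked loci lie left of 0 at UUO-7 against sham and nearer to 0 in R-UUO against sham, while miR-100-5p, miR-146a-5p and miR-149-5p lie right of 0 in all 3 contrasts.

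Many loci that stood far from sham at UUO-7 were not called between UUO-7 and R-UUO. miR-21a-5p, the best known miRNA of renal fibrosis, was at 37934 to 45727 CPM at UUO-7 and at 31998 to 43001 CPM in R-UUO, against 1117 to 1804 CPM in sham. The groups overlapped (log2 -0.24, 95% confidence interval -0.72 to 0.24), and R-UUO was above sham by a log2 change of 4.73. In the list of injury and inflammation miRNAs 1 of 13 tested loci was called higher, miR-146a-5p, where 3.14% of all loci were. miR-155-5p was at means of 109 and 81.5 CPM at UUO-7 and in R-UUO (log2 -0.43, adjusted p = 0.653) from 2.2 CPM in sham.

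miR-199a-3p, transcribed from Dnm3os and known from activated fibroblasts, was at 11331 to 13443 CPM at UUO-7 and at 11226 to 15769 CPM in R-UUO for its chromosome 1 locus (log2 0.16, adjusted p = 0.699), against 2500 to 3114 CPM in sham. None of the 8 loci of the miR-199 and miR-214 list was called, and their median log2 change of 0.16 turned to -0.07 with library sizes alone. miR-143-3p was at 90584 to 116565 CPM at UUO-7 and at 59463 to 107289 CPM in R-UUO, groups that overlapped, while sham held 242431 to 342175 CPM (log2 -1.76 for R-UUO against sham). miR-29c-3p, of a family that represses collagen transcripts, was at 71.9 and 80.2 CPM (log2 0.16, adjusted p = 0.706), against 517 CPM in sham.

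No locus was called in the lists of the let-7 family (13 tested, log2 -0.17 to 0.14), the miR-30 family (12 tested, -0.12 to 0.41), the miR-17 to miR-92a clusters (15 tested, -1.31 to 0.39), the miR-183 cluster (3 tested, 0.10 to 0.25) or the Hox cluster miRNAs (7 tested, 0.24 to 0.63). Nor was any locus called among 2 endothelial markers (log2 -0.77 and -0.50), 3 proximal tubule markers (-0.30 to -0.16), 5 markers of other epithelium (-0.95 to 0.08), 5 mural and muscle miRNAs (-0.33 to 0.42), 7 of the miR-29 family (-0.78 to 1.21), 1 erythroid marker (0.49) or 6 of the miR-34 family (-1.77 to 0.41), and none of 4 Igf2 and H19 miRNAs passed the filter. The medians of the let-7 and miR-30 lists, 0.09 and 0.16, turned to -0.15 and -0.07 with library sizes alone. All 7 Hox cluster loci had a positive log2 change, as did 223 of all 477 loci. They stayed positive with library sizes alone, where 132 of 477 were. Their summed level did not overlap between the groups, at 167364 to 242010 CPM at UUO-7 and 251901 to 360554 CPM in R-UUO. miR-10a-5p and miR-10b-5p, the 2 most abundant loci in R-UUO, were at log2 changes of 0.63 (adjusted p = 0.107) and 0.58 (adjusted p = 0.184), and their R-UUO libraries all lay above the UUO-7 libraries, at 129942 to 185179 against 83173 to 126706 CPM for miR-10a-5p. Of the other loci among the 10 most abundant, miR-22-3p was at 56936 to 60419 CPM at UUO-7 and at 45842 to 54230 CPM in R-UUO (log2 -0.25, adjusted p = 0.186), groups that did not overlap, and let-7f-5p and miR-27b-3p were at log2 changes of 0.07 and 0.36, with groups that did.

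In the miR-34 family, known as targets of p53, miR-34c-5p was at 619 to 687 CPM at UUO-7 and at 547, 273, 369 and 270 CPM in R-UUO replicates 1, 2, 4 and 5. The groups did not overlap, with replicate 1 next to UUO-7 (log2 -0.84, adjusted p = 0.0632), and the change without replicate 1 was -1.12.

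Among loci not called, both loci of miR-26a-5p had the smallest p, with a false discovery rate under the threshold but a fold below it. Its chromosome 10 locus, in an intron of Ctdsp2, was at 26945 to 33281 CPM at UUO-7 and at 39343 to 42695 CPM in R-UUO (log2 0.43, adjusted p = 0.0186), and its chromosome 9 locus has the same mature sequence. The 5 uncalled loci with the smallest p among those lower were miR-341-3p (log2 -2.89, adjusted p = 0.0567), miR-34c-5p, miR-380-3p (-3.73, adjusted p = 0.072), miR-410-3p (-2.44, adjusted p = 0.0897) and miR-582-3p (-1.14, adjusted p = 0.107). Of these, miR-341-3p, miR-380-3p and miR-410-3p belong to the Dlk1-Dio3 region.

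The imprinted Dlk1-Dio3 region of chromosome 12 holds long arrays of miRNA hairpins that are expressed from the maternal chromosome, mostly in embryonic and neural tissues. Of its 116 loci 57 passed the filter, from chr12:109572004 to 109743784, but only 20 of the 57 would pass without the UUO-7 libraries, so counts over those tested are a description. None was called, nor with library sizes alone or median-ratio size factors. DESeq2 called 2 lower, the likelihood ratio test 3, and omitting the filter 24 of 98. A block on replicate number called 11 lower, but the numbers do not pair mice of different conditions, and UUO-7 has no replicate 1. With that block the median log2 change over the 57 was -3.17, and without R-UUO replicate 1 it was -3.75 over 46 loci. The 11 calls are therefore a description and not a further test. The log2 change was negative at all 57 with TMM factors (median -1.86) and at 56 with median-ratio size factors (median -1.76).

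Summed over these 57 loci, the UUO-7 libraries held 10570, 5339 and 13561 CPM. R-UUO replicates 2, 4 and 5 held 985, 986 and 399 CPM, within or near the sham range of 292 to 975 CPM, whereas R-UUO replicate 1 held 8946 CPM, inside the UUO-7 range. UUO-2 libraries held 550 to 951 CPM. The R-UUO group thus comprised 3 libraries near sham and 1 at the level of UUO-7.

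miR-127-3p (chr12:109592888-109592909), which took 44.4% of the summed level at UUO-7, was at 4819, 2490 and 5762 CPM at UUO-7 and at 3856, 507, 459 and 202 CPM in R-UUO replicates 1, 2, 4 and 5. Its log2 change was -1.79 (SE 0.73, adjusted p = 0.203) with all libraries and -3.50 (SE 0.46) without replicate 1. miR-411-5p was at 1786, 827 and 2215 CPM at UUO-7 and at 1500, 150, 169 and 54.2 CPM in R-UUO, and miR-541-5p at 1334, 665 and 2128 CPM and at 1231, 83.9, 106 and 34.5 CPM. For all 3 miRNAs replicate 1 lay inside the UUO-7 range and the other R-UUO libraries far below it.

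Replicate 1 exceeded the other 3 R-UUO libraries at all 57 loci, against 156 of all 477 tested. Those 3 libraries lay below every UUO-7 library at 54 of the 57, against 108 of all 477 tested loci. The counts of 156 and 108 include the region's own 57 and 54 loci. Without replicate 1, 46 loci of the region passed the filter and 43 of them passed as lower, where 11.5% of all loci did, with log2 changes of -7.06 to -2.46 over the 46. These 43 are most of the 53 loci called lower in that fit, so they also make up most of the 11.5%. Only 20 of the 57 would pass the filter without the UUO-7 libraries. The filter thus favours loci that are high at UUO-7, and the counts below UUO-7 are a description.

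**Figure D4:**
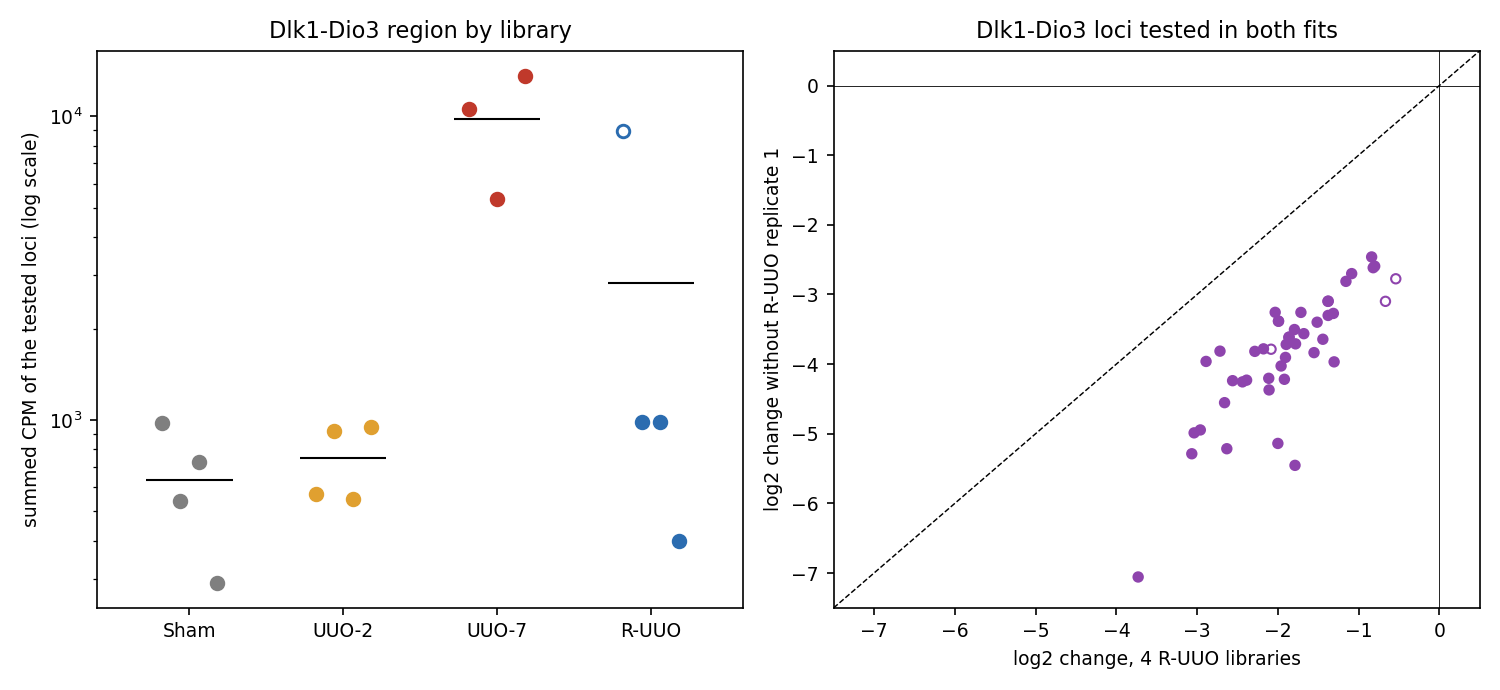
Left, summed CPM of the 57 tested Dlk1-Dio3 loci (log scale) in each PDGFR-β+ library by condition, with bars at the means and R-UUO replicate 1 as an open circle. Right, log2 change of the 46 loci tested in both fits with all 4 R-UUO libraries (horizontal axis) and without replicate 1 (vertical axis), where filled points were called and every point lies below the dashed line of equal values.

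The libraries of the other sorted populations from the mouse numbered R-UUO 1 were not high for the region in the same way. Over all 116 loci, without TMM scaling, PDGFR-β+ replicate 1 held 9769 CPM and the other PDGFR-β+ R-UUO libraries 437 to 1103. ECs of that mouse held 1185, inside the range of 634 to 4051 over the 4 R-UUO ECs. Its Macs held 283, the highest of 4 values from 53.7, and its PT cells 76.2, inside a range of 38.4 to 209. What sets PDGFR-β+ replicate 1 apart was not tested.

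Outside the region, leaving out replicate 1 added 7 loci to those called higher and 6 to those called lower. Those higher were miR-672-5p (log2 1.84, and 1.53 with adjusted p = 0.0701 when replicate 1 was kept), miR-653-5p, miR-503-3p, both miR-181a-5p loci, miR-181a-2-3p and miR-27b-5p. Those lower were miR-34c-5p, miR-34b-5p, miR-298-5p, miR-148b-5p, miR-335-5p and miR-29b-3p at its chromosome 6 locus (log2 -1.42).

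To ask whether a change was particular to PDGFR-β+ cells, the change from UUO-7 to R-UUO was compared with the mean of the changes in ECs, Macs and PT cells in one fit of all 63 libraries. Of 671 loci 1 passed (0.149%), miR-322-3p. Its log2 change was 1.85 (SE 0.30) in PDGFR-β+ cells, -0.18 (SE 0.26) in ECs, 0.59 (SE 0.26) in Macs and -0.10 (SE 0.27) in PT cells, a difference of 1.74 (SE 0.33, adjusted p = 0.00129).

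The 4 populations of a mouse share the animal, and with the mouse as a block 19 loci passed. These included miR-322-3p, miR-322-5p, miR-351-5p, miR-142a-3p with miR-142b, miR-146a-5p, miR-204-5p and miR-23b-3p of the called loci, both miR-181a-5p loci, and miR-411-5p and miR-434-3p of the Dlk1-Dio3 region. Without PDGFR-β+ R-UUO replicate 1, 53 loci passed with no block. For miR-322-5p the difference was 1.29 without the block (adjusted p = 0.148) and 1.67 with it (adjusted p = 0.0433), and the change in PT cells was itself 1.76 (adjusted p = 0.00841). miR-351-5p changed by 0.14 to 0.65 in the other populations, with no adjusted p under 0.05, against 1.67 in PDGFR-β+ cells (difference 1.29, adjusted p = 0.0747, and 0.038 with the block).

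Other called loci moved in other populations as well. miR-125a-5p and miR-99b-5p rose in Macs by log2 changes of 1.03 (adjusted p = 7.5e-06) and 0.93 (adjusted p = 1.03e-05), and miR-100-5p rose there by 2.02 (adjusted p = 0.000237), beside 1.07 in PDGFR-β+ cells (difference of PDGFR-β+ cells from the mean of the others -0.50, adjusted p = 0.65). miR-181c-5p rose in Macs by 0.95 (adjusted p = 0.0125). For miR-142a-3p the log2 change was -1.91 in PDGFR-β+ cells and 0.92 in Macs, themselves leukocytes (adjusted p = 0.114), with a difference from the mean of the others of -2.14 (adjusted p = 0.0573, and 0.0332 with the block).

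**Figure D5:**
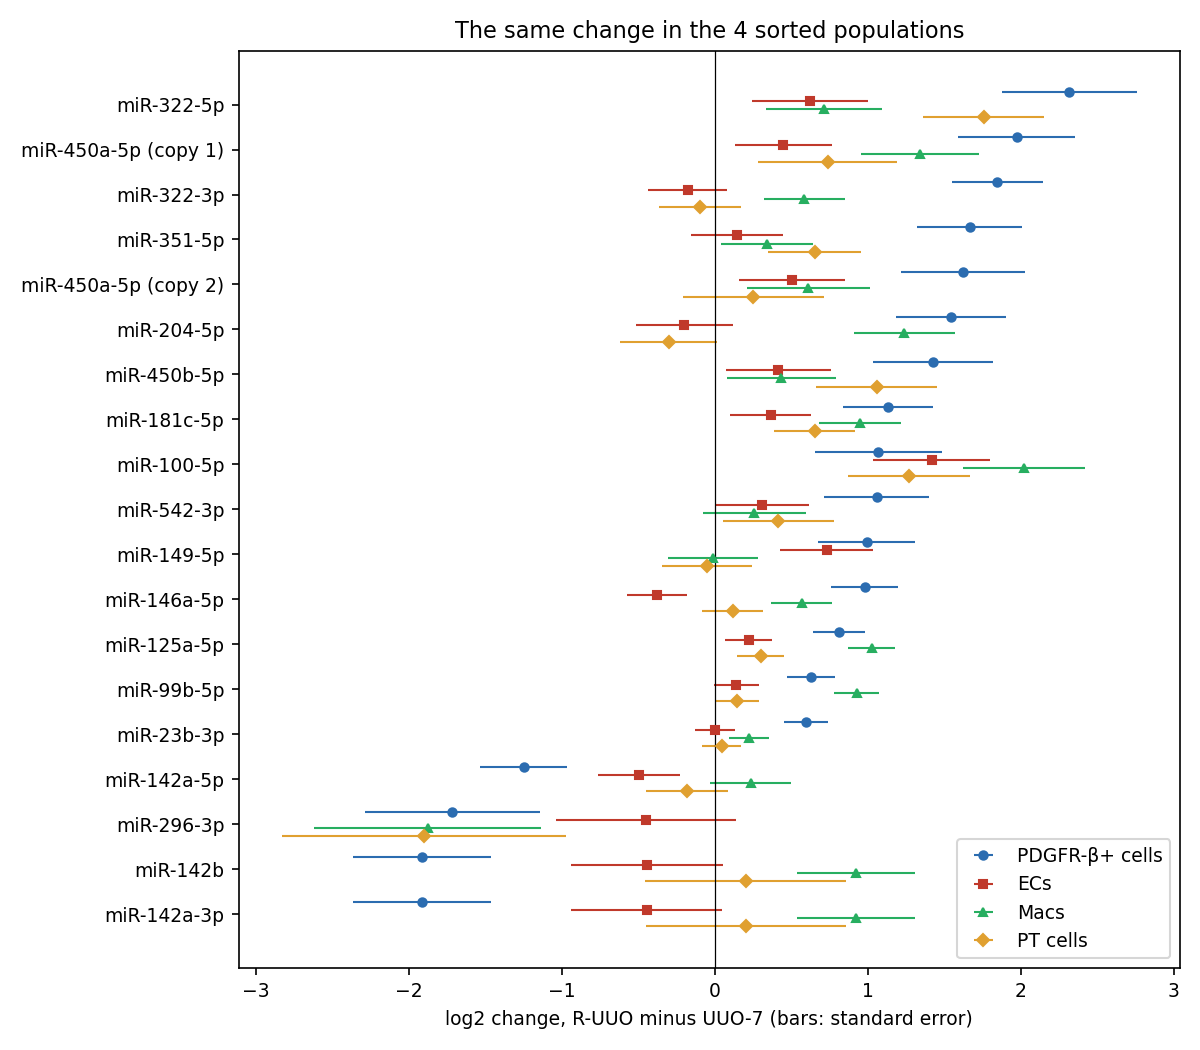
Log2 change from UUO-7 to R-UUO with its standard error (horizontal axis) of the 19 called loci in PDGFR-β+ cells, ECs, Macs and PT cells, from the fit of all 63 libraries. The 7 X-linked loci have their largest estimate in PDGFR-β+ cells, and miR-100-5p is right of 0 in all 4 populations.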

How the data were processed

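Small RNA of FACS-sorted mouse kidney cells was sequenced as paired reads of 150 bp by the authors. Per the labels and the methods they trimmed the reads with Trim Galore 0.4.1 and cutadapt 1.1 and aligned them with ShortStack, which runs Bowtie, to GRCm38 with miRBase 22. The deposited table holds raw counts per locus of a mature miRNA, neither normalized nor pooled. Whether strand was used in counting, and how reads shared by several loci were placed, is not given in the sources used here, so loci of one mature sequence, and antisense loci, cannot be told apart. Of 2110 loci, 869 had no count in PDGFR-β+ cells. The table's summary column was not used.

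The members, and the miRNA lists, were chosen with earlier results of these data known. Groups and replicate numbers were taken from the sample labels. The analysis used edgeR 4.0.16 under R 4.3.3. Loci were filtered with filterByExpr, scaled by TMM within the 15 PDGFR-β+ libraries, and tested by the quasi-likelihood test (glmQLFit, glmQLFTest) with Benjamini-Hochberg adjustment over 477 loci. A locus was called with a false discovery rate under 0.05 and a fold change over 1.5. Standard errors are the log2 change over the root of F, and differences between populations were tested in a fit of all 63 libraries. CPM are counts scaled by the library total and its TMM factor. The fits were tested on simulated counts. Named are the called loci, the 5 uncalled loci of smallest p in each direction, list members by level, and the 10 most abundant loci; others were named after their values were seen, among them those added without R-UUO replicate 1. Lists cover hairpin clusters, seed families and cell type markers, and Dlk1-Dio3 was taken by position. Sequences are from RefSeq and host genes from GENCODE M21. A count of 3 equals 0.331 to 1.16 CPM in these 7 libraries.

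Replicates are mice. Counts of any 2 replicates differed by more than sampling noise (chi-square per degree of freedom 71.9 to 618). The populations of one mouse share its replicate number within a condition, and their deviations correlated with a median r of 0.052, against -0.0082 between different mice. Alternatives were DESeq2 1.42.0, a likelihood ratio test, other scalings, no filter, fits of fewer libraries, the replicate number or mouse as a block, loci summed or counted once, thinned counts and each library left out.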

Additional observations from a re-analysis of the deposited data

Results flagged for a closer look

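On the log2 scale (CPM with a prior count of 2), R-UUO replicate 1 lay apart from the other 3 libraries at miR-672-5p, at 6.43 CPM against 31.4 to 39.7 CPM, with a gap to the nearest library of 0.869 of the group's log2 range. On CPM itself the gap was 0.751 of the range, under Dixon's 95% critical value for 4 samples. At miR-380-3p, of the Dlk1-Dio3 region, the same library was at 3.01 CPM and the others at 0.00 to 0.11 CPM, under the level of 3 counts, with a gap of 0.890 of the range on the log2 scale and 0.963 on CPM. The total count of R-UUO replicate 4, 8769219, lay apart from the others, at 4078086 to 4568998, with a gap of 0.852 on the log2 scale and 0.895 on the counts. These 3 of 53 values tested exceeded the critical value on the log2 scale. About 1 independent group in 20 does so by chance. The 53 values are not independent, since list sums contain loci that were also tested singly, so their share cannot be set against that rate. Without logs 5 exceeded the critical value, the total count, miR-380-3p, miR-341-3p (0.878), miR-410-3p (0.928) and the summed Dlk1-Dio3 level (0.931).

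The change of miR-322-3p from UUO-7 to R-UUO differed between PDGFR-β+ cells and the mean of ECs, Macs and PT cells by 1.74 on the log2 scale (SE 0.33, adjusted p = 0.00129 by edgeR), and by 1.66 with the mouse as a block (adjusted p = 0.00631).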

How the results depend on the processing

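Against 15 loci called higher and 4 lower, DESeq2 gave 25 and 9, library sizes alone 5 and 7, and a fit of the 7 libraries alone 7 and 0. The likelihood ratio test gave 10 lower and omitting the filter 34 lower, with 18 and 21 higher; 24 of those 34 are Dlk1-Dio3 loci. Leaving out one library gave 3 to 22 higher and 0 to 53 lower. These were 22 and 53 without R-UUO replicate 1, 8 and 0 without R-UUO replicate 2, 9 and 2 without R-UUO replicate 4, 8 and 4 without R-UUO replicate 5, 6 and 4 without UUO-7 replicate 2, 9 and 2 without UUO-7 replicate 4, and 3 and 0 without UUO-7 replicate 5, the shallowest library. UUO-7 and R-UUO share replicate numbers 2, 4 and 5 but not mice, and same-numbered libraries deviated with r = -0.033, 0.132 and -0.299, so the numbers do not pair them. The replicate block gave 11 higher and 14 lower, and 11 of those lower are Dlk1-Dio3 loci, including miR-127-3p, miR-380-3p and miR-410-3p. Because the numbers do not pair mice and UUO-7 has no replicate 1, the calls with this block are a description and not a further test.

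miR-322-5p, miR-351-5p and miR-181c-5p were called in all 17 alternatives, miR-125a-5p in 15 (not with library sizes alone or without UUO-7 replicate 5) and the other 15 loci in 7 to 14. No log2 change of a called locus changed sign, and the cause of lost calls was not tested. Of the 19 called loci 12 also differed from sham, and 11 to 14 under the alternatives. The difference between populations, at 1 locus, passed at 19 with the mouse as replicate block, 6 with library sizes alone, 25 with the likelihood ratio test, 34 without the filter, 5, 3 and 2 without UUO-7 replicates 2, 4 and 5, and from 1 to 53 over all libraries left out, 53 being without R-UUO replicate 1. Depth limits loci near 1 CPM.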
